A study of Homo sapiens with 8 samples.

Results

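The genes described here code for 4 cell-surface receptors and 1 G protein subunit: the thrombin receptors F2R and F2RL3, the purine receptor P2RY11, the natriuretic peptide receptor NPR2 and the alpha subunit GNAZ. They were taken by gene symbol from the deposited expression table, and all 5 were among its 1950 genes. They were selected on their difference between treated and control cells, the same values that are reported here. The values are therefore given as a description, with no test.

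RNA was sequenced from K562 cells, an established human line from a chronic myeloid leukemia that can take on features of red cell or platelet precursors. In 4 libraries, called extract 1 to 4, the cells had been given CPM, the herbal material Caulis Polygoni Multiflori of the series title, at 80 µg/mL for 3 days. The labels do not say how the material was prepared. The other 4 libraries, called control 2 to 5, came from cells without it, and neither a vehicle nor a time in culture is given for them, so a difference in either cannot be told apart from the treatment. Separate cultures are not mentioned for the libraries of either group, so spreads and p-values concern these libraries and may be technical. The question in the series title is whether it speeds megakaryocyte and platelet formation by way of PI3K/Akt and MAPK signals.

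The expression table was already a selection by its authors: no gene in it had a deposited p-value above 0.0499 or a deposited change under 1.5-fold. It listed 850 genes as higher and 1100 as lower with the extract. The sources used here give no unit for the expression values, so levels are compared between libraries and not between genes. Read depth is unknown. In bulk RNA, fewer cells of a kind and less RNA per cell cannot be told apart.

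Thrombin receptors belong to the protease-activated receptors. Thrombin cuts the outer end of the receptor, and the new end folds back and switches the receptor on from within. On human platelets the products of F2R (PAR1) and F2RL3 (PAR4) are the receptors through which thrombin triggers activation. P2RY11 codes for a receptor of extracellular ATP that signals through cyclic AMP and calcium. NPR2 codes for a receptor of C-type natriuretic peptide that carries its own guanylyl cyclase and makes cyclic GMP without a G protein. GNAZ codes for an alpha subunit of the inhibitory G protein class, which lowers cyclic AMP and is found in platelets and neurons.

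The coding stretches over the thrombin cleavage sites are shown because they carry the feature that defines the thrombin receptors, and they show that the tethered ligands of the 2 receptors differ. Capitals mark the 18 bases that code for the first residues of the tethered ligand, and the cut lies just before them. The sequences are the coding strand from GENCODE release 29 transcripts (GRCh38, plus strand, chr5:76732328-76732387 for F2R and chr19:16889584-16889643 for F2RL3), and both lie in coding exons.
F2R: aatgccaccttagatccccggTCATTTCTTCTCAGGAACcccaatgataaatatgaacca
F2RL3: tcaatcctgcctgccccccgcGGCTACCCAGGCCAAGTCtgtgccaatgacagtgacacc
The capitals begin at codon 42 of F2R and codon 48 of F2RL3. Over these 60 bases the GC content was 43.3% in F2R and 63.3% in F2RL3. Over the whole coding sequence it was 49.9% in the 1275 bases of F2R and 69.96% in the 1155 bases of F2RL3. Both genes have 2 exons in the transcript used, with 93.1% and 90.6% of the coding bases in the larger coding exon.

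Both thrombin receptor genes were lower with the extract, by nearly the same factor. F2R (ENSG00000181104, chromosome 5, 76716043 to 76735781) had expression values of 5.54, 5.19, 4.66 and 4.70 in extract 1 to 4. In control 2 to 5 its values were 8.48, 9.96, 8.19 and 8.03. The highest extract library lay below the lowest control library, and control 3 was the highest of the controls. The means were 5.02 ± 0.421 with the extract and 8.67 ± 0.883 in control (SD, n = 4 each), a 1.73-fold lower mean and a log2 change of −0.68 on the log2(value + 1) scale. That scale is used for all log2 changes below unless another is named, and it understates the change of low genes.

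F2RL3 (ENSG00000127533, chromosome 19, 16888860 to 16892606) had values of 8.34, 9.34, 8.70 and 8.79 in extract 1 to 4, against 14, 15.74, 14.73 and 15 in control 2 to 5. The groups did not overlap, and the spread was the smallest of the 5 genes in both groups, at 4.70% of the mean with the extract and 4.84% in control. The means were 8.79 ± 0.414 with the extract and 14.9 ± 0.719 in control (SD, n = 4 each), 1.69-fold lower with a log2 change of −0.70.

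**Figure D1:**
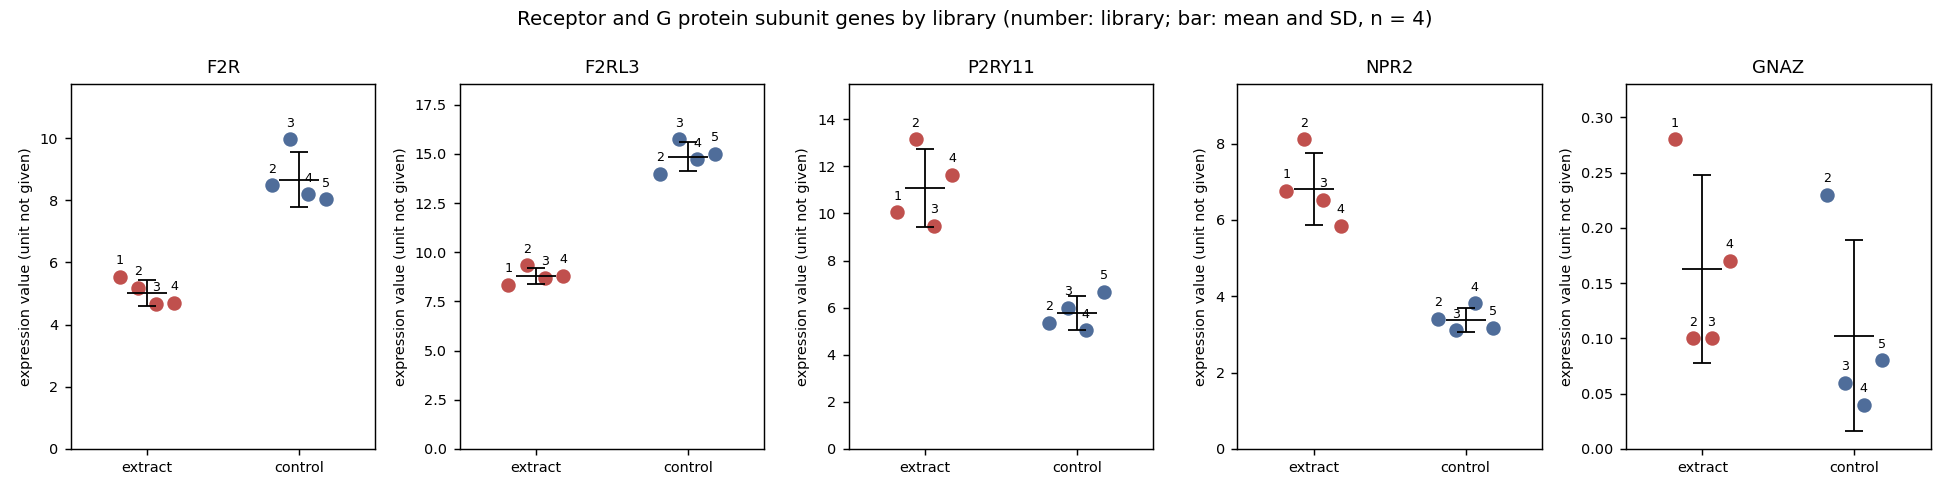
Expression values of the 5 genes by library (points, numbered by library), with extract left of control in each panel; black bars are the mean and SD of 4 libraries, and each vertical axis starts at 0. F2R and F2RL3 lie lower in all 4 extract libraries, P2RY11 and NPR2 higher, and the groups of GNAZ overlap.

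The purine receptor gene and the natriuretic peptide receptor gene were higher with the extract. P2RY11 (ENSG00000244165, chromosome 19, 10111538 to 10115372) had values of 10.05, 13.15, 9.47 and 11.65 in extract 1 to 4, against 5.35, 6, 5.04 and 6.66 in control 2 to 5. The lowest extract library, extract 3, lay above the highest control, control 5. The means were 11.1 ± 1.66 with the extract and 5.76 ± 0.72 in control (SD, n = 4 each), a 1.92-fold higher mean and a log2 change of 0.83. Reads of P2RY11 may be shared with other genes. In GENCODE release 29, the readthrough gene PPAN-P2RY11 on the same strand covers 50.0% of the 2295 exonic bases of P2RY11. PPAN covers 97 of these bases and EIF3G, on the other strand, 113. How the authors' counting divided such reads is not given in the sources used here, and those 3 genes were not analysed here.

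NPR2 (ENSG00000159899, chromosome 9, 35792154 to 35809732) had values of 6.76, 8.11, 6.52 and 5.84 in extract 1 to 4, against 3.40, 3.11, 3.81 and 3.17 in control 2 to 5. The groups did not overlap, and extract 2 was the highest library, as it was for P2RY11 and, within its group, for F2RL3. The means were 6.81 ± 0.952 with the extract and 3.37 ± 0.317 in control (SD, n = 4 each), a 2.02-fold higher mean and a log2 change of 0.83. SPAG8, on the other strand, shares 329 of the 3865 exonic bases of NPR2 and was not analysed here. Whether the library kit and the counting used strand is not given in the sources used here.

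GNAZ was at very low values in every library. GNAZ (ENSG00000128266, chromosome 22, 23070361 to 23125037) had values of 0.28, 0.10, 0.10 and 0.17 in extract 1 to 4, against 0.23, 0.06, 0.04 and 0.08 in control 2 to 5. The groups overlapped, since control 2 lay above 3 of the extract libraries. The means were 0.163 ± 0.085 with the extract and 0.103 ± 0.0866 in control (SD, n = 4 each). The difference in means was smaller than the SD of either group. The log2 change was 0.08 and the log2 of the ratio of means 0.66. The authors' deposited table gave a log2 fold change of 1.32 for GNAZ, with an adjusted p of 0.246. RSPH14, on the other strand, spans GNAZ, shares 274 of its 3840 exonic bases and was not analysed here.

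For the 4 receptors the log2 fold changes of the authors' deposited table were −0.66 for F2R, −0.74 for F2RL3, 1.07 for P2RY11 and 0.86 for NPR2. The log2 ratios of the deposited group means were −0.79, −0.76, 0.94 and 1.01 in the same order. The deposited fold change is thus not the ratio of the deposited means, and the order of P2RY11 and NPR2 differs between the measures. The smallest deposited log2 fold change of the table was 0.59 in size, so F2R was the member nearest to the limit for being listed.

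In 4 of the 5 genes the extract libraries did not overlap the control libraries, as was the case for 41.9% of all 1950 listed genes. Since the contrast itself chose the genes, nothing is read from that count. Of the 5 genes 4 passed the filter on low values, which asked for values of 1 or more in 4 or more libraries, and these 4 were at or above 1 in all 8 libraries. GNAZ reached 1 in 0 libraries. Among the 750 genes that passed, 255 had a log2 change above 0, and the changes of P2RY11 and NPR2 ranked 39 and 40 by size. Among the 495 with a change below 0, those of F2RL3 and F2R ranked 182 and 197.

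**Figure D2:**
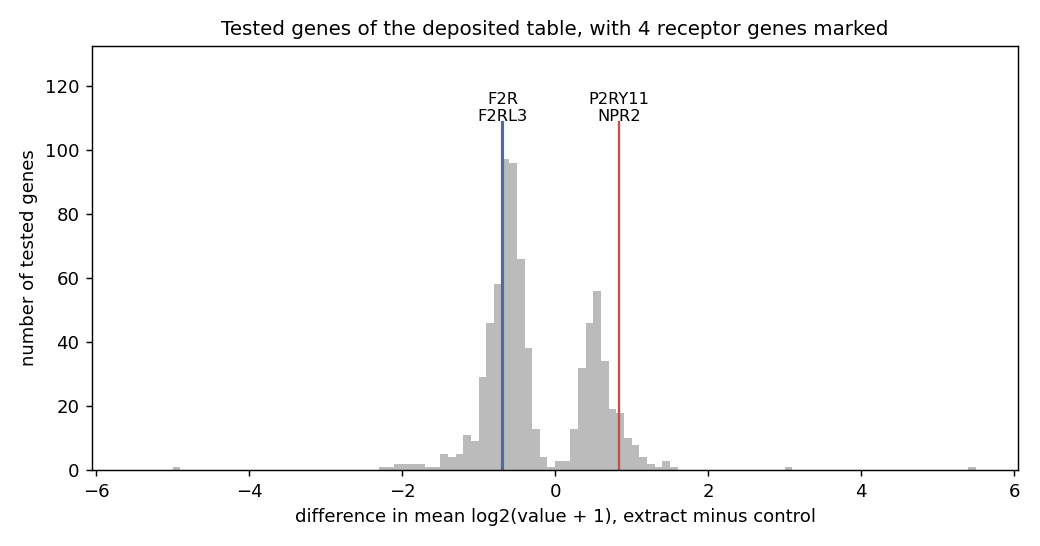
Number of tested genes (vertical axis) by the difference in mean log2(value + 1) between extract and control (horizontal axis, bins of 0.1) for the 750 genes past the filter, with lines for the receptor genes. The gap around 0 comes from the choice of listed genes; F2R and F2RL3 stand near the main mass of lower genes at −0.68 and −0.70, and P2RY11 and NPR2 stand to the right of most higher genes at 0.83.

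Libraries can differ by a common factor, which a ratio of genes within a library leaves unchanged. The ratio of F2RL3 to F2R was 1.51, 1.80, 1.87 and 1.87 in extract 1 to 4, against 1.65, 1.58, 1.80 and 1.87 in control 2 to 5. The groups overlapped, with means of 1.76 ± 0.173 with the extract and 1.72 ± 0.132 in control (SD, n = 4 each), so the 2 thrombin receptor genes were lower by factors that could not be told apart at this spread. The ratio of P2RY11 to NPR2 averaged 1.64 ± 0.248 with the extract and 1.73 ± 0.35 in control (SD, n = 4 each), and these groups overlapped too.

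Across the directions the ratios parted. The ratio of P2RY11 to F2R was 1.81, 2.53, 2.03 and 2.48 in extract 1 to 4, against 0.631, 0.602, 0.615 and 0.829 in control 2 to 5. Its mean was 2.21 ± 0.349 with the extract and 0.67 ± 0.107 in control (SD, n = 4 each), 3.31-fold higher, with control 5 above the other controls. The ratio of NPR2 to F2RL3 lay between 0.664 and 0.868 in the extract libraries and between 0.198 and 0.259 in the controls, 3.40-fold higher on average. These differences come from the contrast that chose the genes and carry no test.

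**Figure D3:**
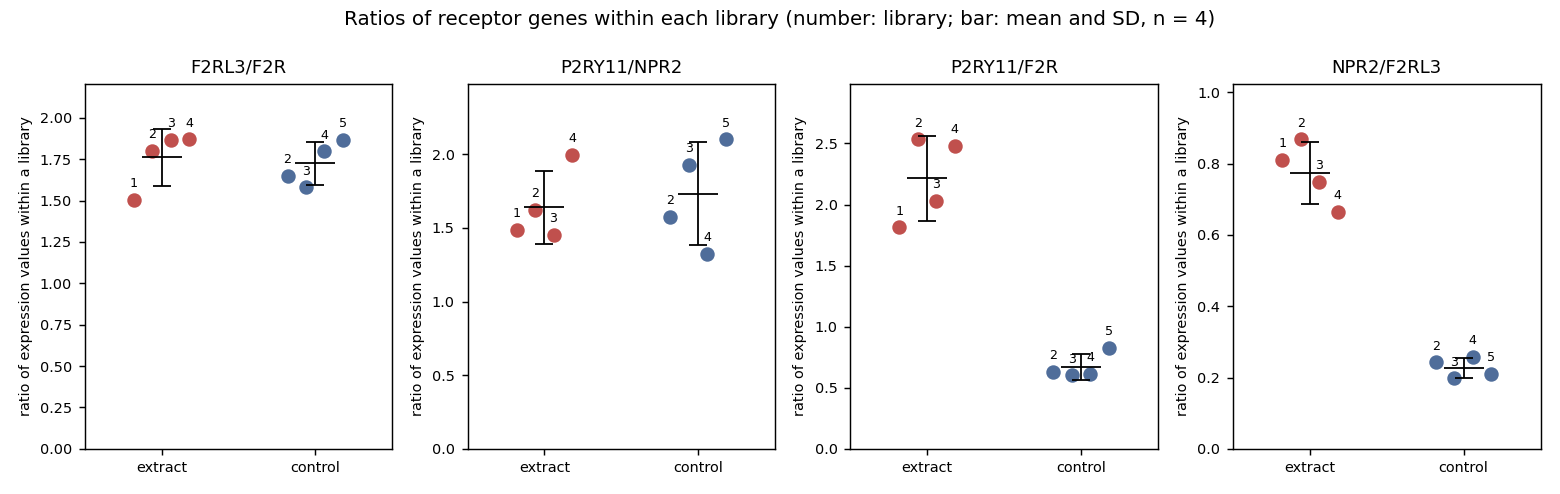
Ratios of expression values of pairs of receptor genes within each library (points, numbered by library), with extract left of control; black bars are the mean and SD of 4 libraries. The ratios F2RL3/F2R and P2RY11/NPR2 overlap between groups, while P2RY11/F2R and NPR2/F2RL3 are higher in every extract library.

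Genes with the most similar pattern were found by the root mean square difference of centred log2(value + 1) over the 8 libraries. For the 4 receptor genes they were sought among 535 named genes past the filter. For GNAZ, which did not pass it, they were sought among 1144 named genes. The root mean square difference follows the difference between the groups first, and both groups are shared by all genes. F2RL3 was most like the noncoding RNA LINC02577, SNCG, which codes for a synuclein, and IGFBP4, which codes for a binding protein of insulin-like growth factors, with differences of 0.0325, 0.0400 and 0.0416. F2R was most like the noncoding transcripts LINC01003 and PAXIP1-DT and again SNCG, with differences of 0.0730, 0.0751 and 0.0783. SNCG averaged 75.8 ± 2.15 with the extract and 123 ± 4.10 in control (SD, n = 4 each). P2RY11 was most like the kinase gene TESK1, the Rac exchange factor gene TIAM2 and the mucin gene MUC4, at 0.109, 0.119 and 0.119. NPR2 was most like INTS6, which codes for an Integrator subunit, TIAM2 and the zeta globin gene HBZ, at 0.0808, 0.109 and 0.115. The matches of GNAZ, DCDC2B, STK33 and HEY2, averaged 0.255 or less in both groups and show mainly that low genes have small log2 values.

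The sequences before the RefSeq starts of NPR2 and F2RL3 are shown because they differ in the motifs they hold. RefSeq promoter entries (GRCh38.p14) were matched for F2RL3, P2RY11 and NPR2, and not for F2R and GNAZ. The RefSeq start of NPR2 lies 563 bases before the GENCODE start given above, while those of F2RL3 and P2RY11 lie 139 and 155 bases after theirs. Only the part before the RefSeq start that lies outside exons of GENCODE release 29 is printed, on the plus strand, at chr9:35791341-35791590 for NPR2 and chr19:16888749-16888859 for F2RL3. Capitals mark the GC box GGGCGG.
NPR2: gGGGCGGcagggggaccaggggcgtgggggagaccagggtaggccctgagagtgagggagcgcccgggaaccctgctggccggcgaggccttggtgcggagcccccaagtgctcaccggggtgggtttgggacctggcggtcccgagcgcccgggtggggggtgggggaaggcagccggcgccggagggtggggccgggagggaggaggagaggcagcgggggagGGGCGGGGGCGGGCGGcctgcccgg
F2RL3: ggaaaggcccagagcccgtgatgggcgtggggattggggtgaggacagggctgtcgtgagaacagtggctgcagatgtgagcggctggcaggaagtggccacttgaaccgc
Exons of GENCODE release 29 cover 139 of the 250 bases before the RefSeq start of F2RL3, all 250 of P2RY11 and 0 of NPR2, so the windows are not of like kind. Over these 250 bases the GC content was 79.2% for NPR2, 66.8% for F2RL3 and 62.4% for P2RY11, against a median of 58% over 35116 promoters. On both strands, and counting overlapping matches, NPR2 held 4 GC boxes. F2RL3, which was lower, and P2RY11, which was higher like NPR2, both held 0. A link between motifs and the direction of change was not tested. A GC box was present in 42.6% of all promoters. An E-box, CACGTG, was found 1 time in the window of F2RL3, in the part not printed, which lies in exons after the GENCODE start. It was present in 6.34% of all promoters. TGACGTCA, AGATAA and CCGGAAGT, the motifs of cyclic AMP response elements, GATA factors and ETS factors, were found 0 times in the 3 windows and in 1.65%, 9.17% and 3.42% of all promoters. A match is a string of letters and not a shown site.

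The pathways around these genes were followed through gene lists of ligands, related receptors, G proteins, regulators and effectors. Calls are limma adjusted p under 0.05 (Benjamini-Hochberg over the 750 tested genes), which 26.8% of tested genes passed as higher and 56.0% as lower. The median log2 change of all tested genes was −0.50. As the genes of the table were chosen on the same contrast, a call is no independent evidence. Further genes of the lists were not analysed here, among them the other protease-activated receptor genes F2RL1 and F2RL2. F2RL1 is the next annotated gene after F2R on chromosome 5, 83151 bases away.

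Around thrombin, 4 of 26 listed genes were in the table, and besides F2R and F2RL3 they were genes of the plasminogen system, which dissolves clots. PLAU, which codes for urokinase, had values of 1.05, 0.74, 16.89 and 0.87 in extract 1 to 4, against 2.05, 1.75, 1.80 and 1.74 in control 2 to 5. Extract 3 alone lay above the controls and the other 3 extract libraries lay below them. In limma PLAU had a log2 change of 0.22 with adjusted p = 0.766. Without extract 3 the log2 change was −0.59. No test is given for it, since besides extract 1 at 1.05 the gene then met the filter only through the 4 controls. The authors' deposited table marks it as lower. PLAT, which codes for tissue plasminogen activator, averaged 0.0575 ± 0.0403 with the extract and 0.275 ± 0.174 in control (SD, n = 4 each), too low to test.

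The purine list had 2 of 35 genes in the table, P2RY11 and P2RY2, which codes for a receptor of ATP and UTP. P2RY2 was listed at 0 in all 4 controls and reached 0.02 at most with the extract. The list of the natriuretic peptide and cyclic GMP system had 5 of 39. NPR3, the gene of the receptor that clears natriuretic peptides, was listed at 0 in all controls and averaged 0.0625 ± 0.105 with the extract (SD, n = 4). MME, which codes for neprilysin, a peptidase that degrades natriuretic peptides, averaged 0.748 ± 0.314 with the extract and 1.998 ± 0.627 in control (SD, n = 4 each). It passed the filter through the 4 controls and extract 2, at 1.19. As it passed mainly through the controls, no test is given for it. The phosphodiesterase genes PDE1B and PDE2A were too low to test, and their groups overlapped.

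Among 33 genes of G protein subunits, 4 were in the table and the authors' deposited table marks all 4 as higher. It marks 850 of all 1950 listed genes as higher. The 4 include GNAZ, and the groups of GNAZ and GNG13 overlapped. GNG3, a gamma subunit gene, had values of 1.43, 1.19, 1.45 and 1.51 in extract 1 to 4, against 0.20, 0.21, 0.63 and 0.59 in control 2 to 5. Its log2 change was 0.78, but it passed the filter only through the extract libraries, so it had to differ and no test is given for it. GNG13, another gamma subunit gene, averaged 0.973 ± 0.254 with the extract and 0.278 ± 0.288 in control, and GNAL, the alpha subunit gene of the olfactory G protein, averaged 0.608 ± 0.0624 with the extract and 0.375 ± 0.0412 in control (SD, n = 4 each). Both were too low to test, and like GNAZ they stand at values where the pseudocount hides most of the ratio.

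All 3 tested regulators of G proteins fell, but the authors' deposited table already marks all 5 listed ones as lower. Nothing about the group is read from this. The table held 5 of the 36 genes of this list, 3 of them past the filter, and 0 of the 3 rose and 3 fell, against 26.8% and 56.0% of all tested genes. Their median log2 change was −0.71, against −0.50 over all tested genes. The latter pools genes that rose and genes that fell, so it is no measure for falling genes alone. RGS20 codes for an RGS protein that speeds the shut-off of the GNAZ product. It had values of 2.31, 1.35, 1.82 and 2.30 in extract 1 to 4, against 3.88, 3.33, 5.56 and 4.85 in control 2 to 5 (limma log2 change −0.87, adjusted p = 0.00219). The groups did not overlap, with control 4 the highest. RGS2, which acts on the Gq class of alpha subunits, fell to 3.21 ± 0.352 with the extract, against 5.12 ± 0.583 in control (SD, n = 4 each, limma adjusted p = 0.00219). With libraries centred on their median its adjusted p was 0.0550. GPSM3, which binds inhibitory alpha subunits, fell to 9.51 ± 0.88 with the extract, against 16.2 ± 1.34 in control (SD, n = 4 each, limma adjusted p = 0.000207). The receptor kinase gene GRK5 and RGS9 were under 0.5 in every library and were not tested.

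The table held 6 of 50 effector genes, and of the 4 past the filter 0 rose and 3 fell, against 26.8% and 56.0% of all tested genes. The median log2 change was −0.66 over the 4, against −0.50 over all tested genes, which pools rising and falling genes. RHOB, which codes for a small GTPase, fell to 5.94 ± 0.821 with the extract, against 11.4 ± 0.718 in control (SD, n = 4 each, limma adjusted p = 0.000171). RASGRP2, which codes for the calcium-sensitive activator of Rap proteins in platelets, fell to 4.45 ± 0.53 with the extract, against 7.12 ± 1.05 in control (SD, n = 4 each, limma adjusted p = 0.00353). RASGRP3, a related exchange factor gene, fell to 1.95 ± 0.789 with the extract, against 3.94 ± 1.08 in control (SD, n = 4 each, limma adjusted p = 0.0187), although the groups overlapped. With median centring only RHOB of these 3 was called, and the adjusted p was 0.0655 for RASGRP2 and 0.0967 for RASGRP3. ADCY10, the adenylyl cyclase that bicarbonate rather than a G protein switches on, averaged 2.24 ± 0.354 with the extract and 2.72 ± 0.0544 in control (SD, n = 4 each, limma adjusted p = 0.0834).

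Other G protein-coupled receptor genes moved in both directions. Of 361 symbols that matched the list 30 were in the table, and 9 were tested. The authors' deposited table marks 11 of the 30 as higher and 19 as lower, against 850 and 1100 of all 1950 genes. In limma 2 of the 9 rose and 5 fell, against 26.8% and 56.0% of all tested genes. The median log2 change was −0.51, close to the −0.50 of all tested genes. The 5 that fell were FZD4, ADGRE2, KISS1R, GPR3 and GPR155. FZD4, a receptor of Wnt proteins and norrin, averaged 6.53 ± 0.132 with the extract and 10.1 ± 0.282 in control (SD, n = 4 each, limma adjusted p = 9.06e-05). The adhesion receptor gene ADGRE2, known from myeloid cells, averaged 5.26 ± 0.883 with the extract and 9.91 ± 0.919 in control, and the kisspeptin receptor gene KISS1R 8.48 ± 0.615 with the extract and 14.2 ± 3.23 in control (SD, n = 4 each). After median centring GPR3 and GPR155 were not called, at a limma adjusted p of 0.0721 and 0.248. The 2 that rose were GPR135 and GPR75, with log2 changes of 0.42 and 0.46, and GPR135 passed the filter only through the extract libraries and so had to differ. GPR75 (limma adjusted p = 0.0344) was no longer called when extract 2, extract 3, control 3 or control 4 was left out, with adjusted p between 0.0675 and 0.0849. GPR155 (limma adjusted p = 0.0419) was no longer called when extract 2, extract 3, extract 4, control 3 or control 5 was left out, with adjusted p between 0.0586 and 0.103. GPRC5D (limma adjusted p = 0.0763) became called as higher with median centring (adjusted p = 0.0204) and quantile normalization (adjusted p = 0.0419). It was also called without control 4, where only the extract libraries and control 5 reached 1. ACKR2 (limma adjusted p = 0.116) was called as lower only without extract 1, its only extract library at 1 or more. GABBR2, a subunit gene of the GABA-B receptor, had values of 23.48, 1.25, 0.96 and 1.45 in extract 1 to 4, against 0.31, 0.48, 0.52 and 0.39 in control 2 to 5. It did not pass the filter, and its extract mean of 6.79 rests on extract 1.

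**Figure D4:**
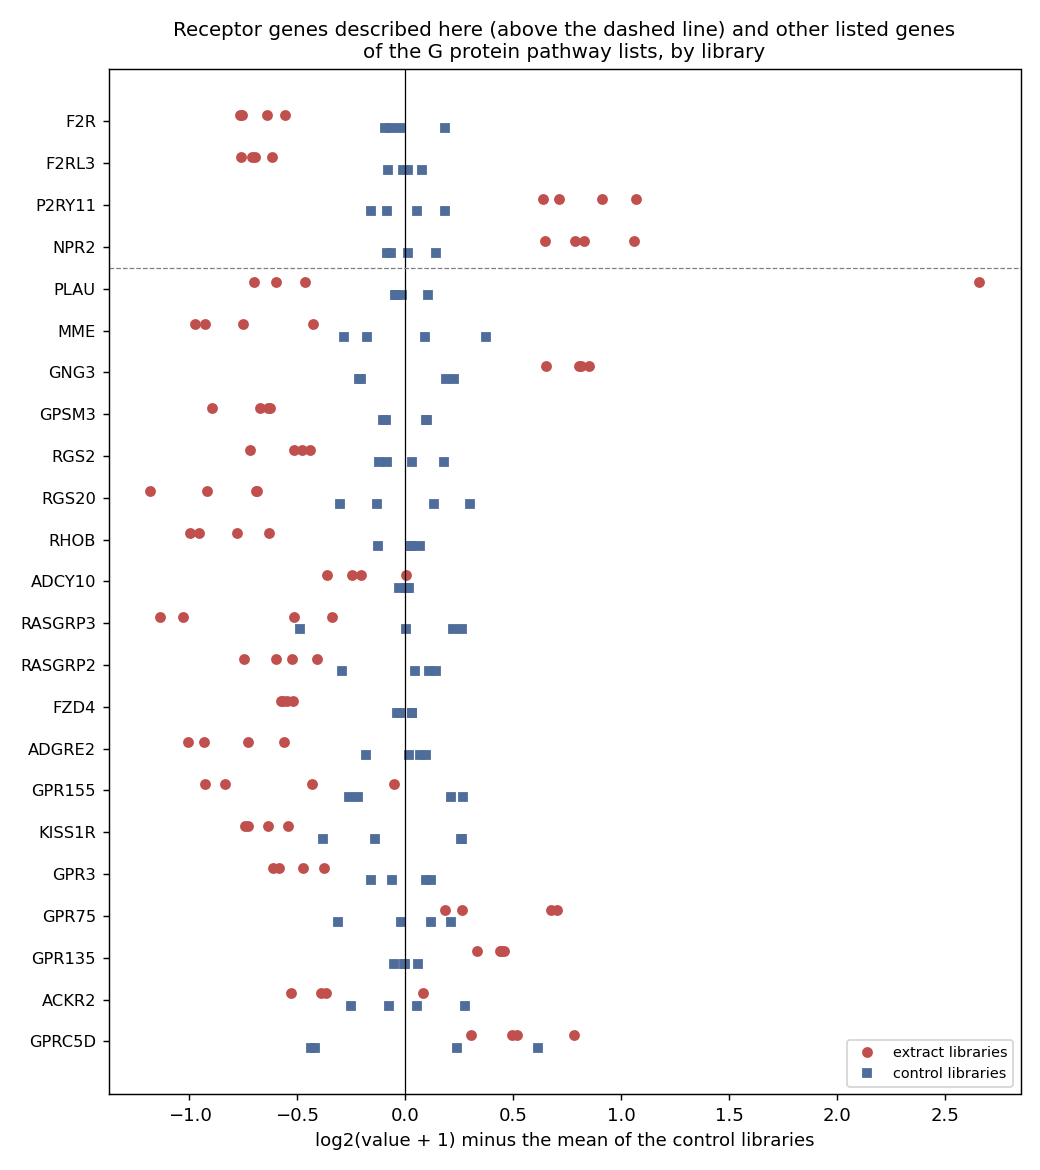
Log2(value + 1) minus the mean of the control libraries (horizontal axis) for 4 receptor genes described here, above the dashed line, and the other tested genes of the pathway lists, with extract libraries as circles above control libraries as squares. PLAU has 1 extract library far to the right at a value of 16.89, while its other 3 extract libraries lie left of all controls.

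Cell type markers in the table moved beside these genes, and their counts stand against 26.8% of all tested genes called higher and 56.0% called lower. Of 32 megakaryocyte and platelet markers 4 were listed, and of the 2 tested, GP1BB and ITGA2B, both fell, while F2R and F2RL3 are themselves platelet receptors. THBS1, which codes for thrombospondin and was too low to test, averaged 1.12 ± 0.451 with the extract and 0.57 ± 0.208 in control (SD, n = 4 each), and PLEK stood at 0.15 or less in every library. Neither fall was called after median centring, at a limma adjusted p of 0.171 for GP1BB and 0.105 for ITGA2B. GP1BB was also not called when extract 2, extract 3 or control 2 was left out, with adjusted p between 0.0568 and 0.0614. The 4 listed markers summed to between 46.8 and 60.4 in the extract libraries and between 56.3 and 120.2 in the controls, most of which was GP1BB at 49.8 ± 5.63 with the extract and 81.2 ± 27.3 in control (SD, n = 4 each).

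Of 35 erythroid markers 3 were listed, and HBZ, the one tested, rose, against 26.8% of all tested genes called higher. Quantile normalization left HBZ with a log2 change of 2.9e-16 and no call. That method gives a gene of the same rank in every library the same value. The missing call was therefore fixed by the method and says nothing about the rise. The 3 summed to between 4954 and 5308 with the extract and between 2835 and 2921 in control, nearly all of it HBZ. Of 28 monocyte, granulocyte and lymphocyte markers 3 were listed and tested. All 3 fell (CD68, SPI1 and CD3D), against 56.0% of all tested genes called lower. These summed to between 38.99 and 41.8 with the extract and between 71.9 and 77.1 in control. None of the listed markers was at 0 in all libraries of a group. Their part in the values of the receptor genes was not tested.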

How the data were processed

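The deposited expression values are a score with 2 decimals, 1 for each gene in each library, and no unit is given in the sources used here. The deposited group means equalled the means of these values. Per the submitters' processing notes, the tools were HISAT2 and StringTie and the build was GRCh38, and roles and versions are not given. Per the file headers, the authors also deposited for each gene a fold change (a ratio), its log2 and p-values before and after adjustment, made with a tool that is not named. Among 993 low values of genes with 1 transcript, 14.7% lay near a whole multiple of the lowest value of that gene, where the rounding to 2 decimals alone would place 12.7%. Reads could not be recovered, and depth is unknown.

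Calls came from limma (3.58.1, R version 4.3.3) on log2(value + 1) with robust and trended moderation. It was run on the 750 genes whose value was 1 or more in 4 or more of the 8 libraries, with Benjamini-Hochberg adjustment at 0.05. The same code was run first on simulated data with known changes. The members and the 10 lists were chosen with earlier results of these data known, and some of their genes are not reported here. Named genes were the 5 members, listed genes of the lists, overlapping or neighbouring genes, and the 3 genes most like each member. Alternatives were pseudocount 0.1, median centring, quantile normalization, no filter, moderation without the trended and robust options, a replicate block, other fold measures and leaving out each library. The ratios within libraries were added after seeing the data. Spans and exons are from GENCODE release 29 (GRCh38), which held 95.7% of the listed IDs. The annotation behind the table is not given, and no pair of libraries was identical.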

Additional observations from a re-analysis of the deposited data

Results flagged for a closer look

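A check covered 76 groups of 4 libraries, from the members, their ratios and part of the listed genes of the lists. A single library stood far from its group in 5. Not every low gene of the lists was checked. By chance about 3.8 such cases are due, 1 in 20 groups. PLAU had 16.89 in extract 3, against 0.74 to 1.05 in the other extract libraries. GABBR2 had 23.48 in extract 1, against 0.96 to 1.45 in the other extract libraries. CD3D had 22.87 in extract 2, against 18.5 to 19.0 in the others of its group. GPR135 had 1.09 in extract 2, against 1.25 to 1.28 in the others. The ratio of P2RY11 to F2R was 0.829 in control 5, against 0.602 to 0.631 in the other controls.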

How the results depend on the processing

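Every member kept its direction under each alternative run. With median centring, which removes a difference of −0.27 (log2) between the library medians of extract and control, the log2 changes were −0.41 for F2R, −0.43 for F2RL3, 1.10 for P2RY11, 1.10 for NPR2 and 0.34 for GNAZ. With quantile normalization they were −0.46 for F2R, −0.40 for F2RL3, 1.08 for P2RY11 and 1.07 for NPR2. With pseudocount 0.1 they were 0.99 for NPR2 and 0.41 for GNAZ. The log2 ratio of means was 1.01 for NPR2 and 0.66 for GNAZ, and the authors' deposited table gave 1.07 for P2RY11 and 1.32 for GNAZ. Leaving out 1 library gave −0.72 to −0.62 for F2R, −0.72 to −0.67 for F2RL3, 0.75 to 0.90 for P2RY11, 0.75 to 0.89 for NPR2 and 0.03 to 0.13 for GNAZ.

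In the whole table limma called 201 genes higher and 420 lower. The counts were 228 and 241 with median centring and 218 and 270 with quantile normalization, both of which centre on genes chosen as changed, and 314 higher with no filter, where more genes are tested. Leaving out 1 library gave 163 to 190 higher and 369 to 394 lower. In the lists, counted without the members, median centring left 1 effector, 3 other receptor genes and 0 megakaryocyte markers called lower. It gave 3 other receptor genes called higher, against 2 in the main fit. With quantile normalization 3 other receptor genes and 0 megakaryocyte markers were called lower, and 3 other receptor genes were called higher. The erythroid marker HBZ lost its call there by the method itself, as described above. With no filter all 1950 genes were tested, and 314 were called higher and 567 lower. Beside that, 3 G protein subunits, 3 of 3 listed erythroid markers and 5 of 30 listed other receptor genes were called higher. Of those 30 receptor genes 12 were called lower. Nothing is read from these counts, as the table was chosen on this contrast. Leaving out 1 library gave 1 to 2 megakaryocyte markers called lower and 1 to 2 other receptor genes called higher. The cause was not tested. Where the count of receptor genes was 1, GPR75 had lost its call and the gene left was GPR135. As GPR135 had to differ through the filter, its call says nothing about how stable the count is.

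The replicate numbers 2, 3 and 4 occur in both groups, but the labels do not say what they mean. Deviations from the group means correlated at 0.0754, 0.0754 and 0.149 across genes for libraries of the same number. These correlations are low, but 6 of 6 libraries correlated best with their own number among the 3 shared numbers. Whether libraries of the same number share more than that number was not tested, and the main fit does not use it. In the run with the replicate block, libraries without a shared number add nothing to the contrast, which rests on the 6 libraries with a shared number. With the replicate block 160 genes were called higher and 351 lower, and RASGRP3 lost its call (limma adjusted p = 0.117). The log2 changes were −0.75 for F2R, −0.67 for F2RL3, 0.93 for P2RY11, 0.81 for NPR2 and 0.02 for GNAZ. Whether the differences from the main fit come from the block or from the fewer libraries was not tested. Depth is unknown, so counting error at the values of GNAZ cannot be given.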
